A study of Homo sapiens with 66 samples.

Results

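The potassium channel genes described here are the protein-coding genes whose symbol begins with KCN, 96 of the 60603 genes in the count tables. Members were found by the symbol that the GENCODE v44 annotation gives each Ensembl identifier, and 27 other KCN symbols (pseudogenes and antisense or other non-coding genes) were left out. RNA was sequenced from H9, an established line of human embryonic stem cells, all wild type, in 66 libraries that formed 22 groups of 3. The groups were undifferentiated cells (hESC), neuromesodermal progenitors on each of 4 days (hNMP-D1 to hNMP-D4), the neural determination stage on each of 6 days (NeuDet-D1 to NeuDet-D6), hSCNPCs and spinal motor neurons (hMN). The hSCNPCs, the neural progenitors of the spinal cord, were sampled at passage 5, 10, 20, 30 and 40, and the hMNs on days 6, 12, 18, 24, 30 and 42. The groups are written hSCNPC-P5 or hMN-D6 and so on. hESCs grew in mTeSR1, hNMPs, after a first day in mTeSR1, in FGF2, CHIR99021, SB431542 and Dorsomorphin, NeuDet cells in the same agents with FGF8 and Compound E, hSCNPCs in SB431542, CHIR99021 and Purmorphamine, and the hMNs in Purmorphamine, Compound E, BDNF, GDNF and NT-3. All groups came from 1 line, and nothing in the labels tells if a group's 3 libraries were separate cultures. The p-values therefore measure the spread between these libraries, which may be technical.

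Potassium channels let potassium ions leave or enter the cell and so set the resting membrane potential, end action potentials and shape repetitive firing. The voltage-gated pore-forming subunits open on depolarisation (KCNA to KCND, KCNH and KCNQ), and silent subunits (KCNF, KCNG, KCNS and KCNV) join them without forming a channel alone, while KCNAB, KCNIP and KCNE proteins are auxiliary subunits. The inward rectifiers (KCNJ) and the tandem-pore channels (KCNK) act near the resting potential, and the calcium- and sodium-activated channels (KCNMA, KCNMB, KCNN, KCNT and the related KCNU) tie potassium flow to other ions. In spinal motor neurons these currents are known for the afterhyperpolarisation that limits firing, and in dividing cells for a part in volume control and the cell cycle.

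The sequence before the start of 5 members is shown because these genes carry the steps described further on: KCNK5 was high in hESC, KCNC1 and KCNJ6 were higher in hSCNPC-P5 than in NeuDet-D6, KCNH2 was highest in hMN-D6 and KCNK3 in hMN-D42. Each run holds the 250 bases before the RefSeq transcript start on GRCh38.p14, read 5′ to 3′ along the gene, and capitals mark GC boxes (GGGCGG, or CCGCCC on the other strand), the letters that Sp1-type factors are known to bind. Boxes that overlap are counted each and stand in one run of capitals.
KCNK5 (chr6:39229476-39229725, minus strand): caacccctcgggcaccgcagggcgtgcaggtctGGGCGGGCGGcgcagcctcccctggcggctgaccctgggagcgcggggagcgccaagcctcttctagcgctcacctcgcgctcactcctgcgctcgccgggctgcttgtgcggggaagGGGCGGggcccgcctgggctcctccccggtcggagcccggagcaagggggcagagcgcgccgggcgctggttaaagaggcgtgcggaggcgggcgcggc
KCNC1 (chr11:17734531-17734780, plus strand): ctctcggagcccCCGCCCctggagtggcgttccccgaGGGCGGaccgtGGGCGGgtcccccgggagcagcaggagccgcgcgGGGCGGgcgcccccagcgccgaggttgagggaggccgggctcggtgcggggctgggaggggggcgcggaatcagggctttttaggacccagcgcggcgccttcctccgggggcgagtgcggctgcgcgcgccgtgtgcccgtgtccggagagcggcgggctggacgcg
KCNJ6 (chr21:37916458-37916707, minus strand): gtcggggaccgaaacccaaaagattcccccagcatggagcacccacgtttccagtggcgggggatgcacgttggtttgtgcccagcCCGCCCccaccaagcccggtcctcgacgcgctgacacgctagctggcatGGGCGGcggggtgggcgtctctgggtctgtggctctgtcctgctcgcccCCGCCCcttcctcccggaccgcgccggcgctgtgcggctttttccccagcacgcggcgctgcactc
KCNH2 (chr7:150978322-150978571, minus strand): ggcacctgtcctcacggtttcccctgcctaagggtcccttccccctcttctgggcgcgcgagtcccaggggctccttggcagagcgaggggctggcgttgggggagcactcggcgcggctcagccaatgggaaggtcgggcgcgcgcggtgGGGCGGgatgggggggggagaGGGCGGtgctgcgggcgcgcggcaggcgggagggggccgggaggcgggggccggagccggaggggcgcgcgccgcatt
KCNK3 (chr2:26692472-26692721, plus strand): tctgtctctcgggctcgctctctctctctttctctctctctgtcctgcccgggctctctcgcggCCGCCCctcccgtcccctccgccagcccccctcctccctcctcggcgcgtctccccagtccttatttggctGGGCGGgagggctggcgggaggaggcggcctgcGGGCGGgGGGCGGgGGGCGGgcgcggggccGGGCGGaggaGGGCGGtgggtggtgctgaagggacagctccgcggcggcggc
All 5 windows were rich in G and C, from 70.0% in KCNJ6 to 79.2% in KCNC1, and held between 2 GC boxes (KCNH2) and 7 (KCNK3), counted on both strands. RefSeq promoters were at hand for 72 of the 96 members, and a GC box lay in 40 of them (55.6%), against 42.3% of the 27305 promoters of the same length. The letters TATAAA, in either direction, were in 6 of the 72 (KCNJ1, KCNJ13, KCNJ14, KCNK1, KCNK16 and KCNT2), or 8.3%, against 11.1% of all promoters. These matches describe the windows and were not tested, and which start the cells used was not measured.

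Library totals ran from 14142238 to 40204753 counts, with a median of 20676228. Levels are given as CPM, the count scaled to library size with TMM factors over all 66 libraries. A gene counts as detected in a group when all 3 libraries reached 1 CPM. POU5F1, the pluripotency factor, had 152 ± 22.9 CPM in hESC, and CDX2, a caudal homeobox gene, had 527 ± 13.2 CPM in NeuDet-D6. PAX6, of neural progenitors, had 494 ± 30.05 CPM in hSCNPC-P5, and SLC18A3, the vesicular acetylcholine transporter of motor neurons, 20.2 to 36.4 CPM on average in the hMN groups. Other defining markers were low where they were due, with TBXT, the mesoderm factor, at 4.27 CPM in hNMP-D4, and MNX1 and CHAT, of motor neurons, at 5.0 and 3.595 CPM in hMN-D42 on average. Among the hNMP-D4 libraries replicate 1 stood apart in its share of counts on KCN genes, with 0.0473% against 0.0560% and 0.0558%. Over all genes replicate 3 of hNMP-D4 differed most, with a chi-squared per degree of freedom of 25.3 against replicate 1 and 13.7 against replicate 2. Between replicates 1 and 2 it was 9.08. Replicate 1 of hESC also stood apart (10.3 and 11.4, against 2.15 between replicates 2 and 3). In NeuDet-D6 replicate 3 had 0.0411% of its counts on KCN genes, against 0.0335% and 0.0360%. Among the hMN-D30 libraries replicate 3 had 355 CPM summed over 6 mesenchymal genes, against 107 CPM in the lowest of the 3. For steps that rest on replicate 1 of hNMP-D4 or replicate 3 of hMN-D30, counts over the whole family are also given without that library. Subfamily counts are not. No single call of a KCN gene named below was lost when either of these libraries was left out. Family counts without each library in turn are given as ranges at the end. In bulk RNA, fewer cells of a type and less RNA per cell cannot be told apart.

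KCN genes took a small share of the RNA at every stage, and the share was highest in the motor neurons. They held 0.0628% ± 0.00122 of all counts in hESC (SD, n = 3), 0.0336% ± 0.000514 in NeuDet-D3, the lowest group, 0.0850% ± 0.00259 in hSCNPC-P10 and 0.275% ± 0.00365 in hMN-D24, the highest. Every hMN library, from 0.207% to 0.279%, lay above every library of the other stages, the highest of which had 0.0878% in hSCNPC-P10. The hMN libraries are also in a separate table of counts, so table and stage cannot be told apart in this step. Of the 96 members, 49 were detected in hESC, 34 in NeuDet-D5 and in hSCNPC-P40, 50 in hMN-D6 and 63 in hMN-D42. Over all groups, 76 members were detected at least once, 16 in every group and 20 never. Of the 76, 48 had their highest mean in an hMN group, 11 in hESC, 9 in hNMP, 6 in hSCNPC and 2 in NeuDet. The stages differ in their number of groups, with 6 of the 22 in hMN. The same split over all genes was not computed, so these counts have no background.

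**Figure D1:**
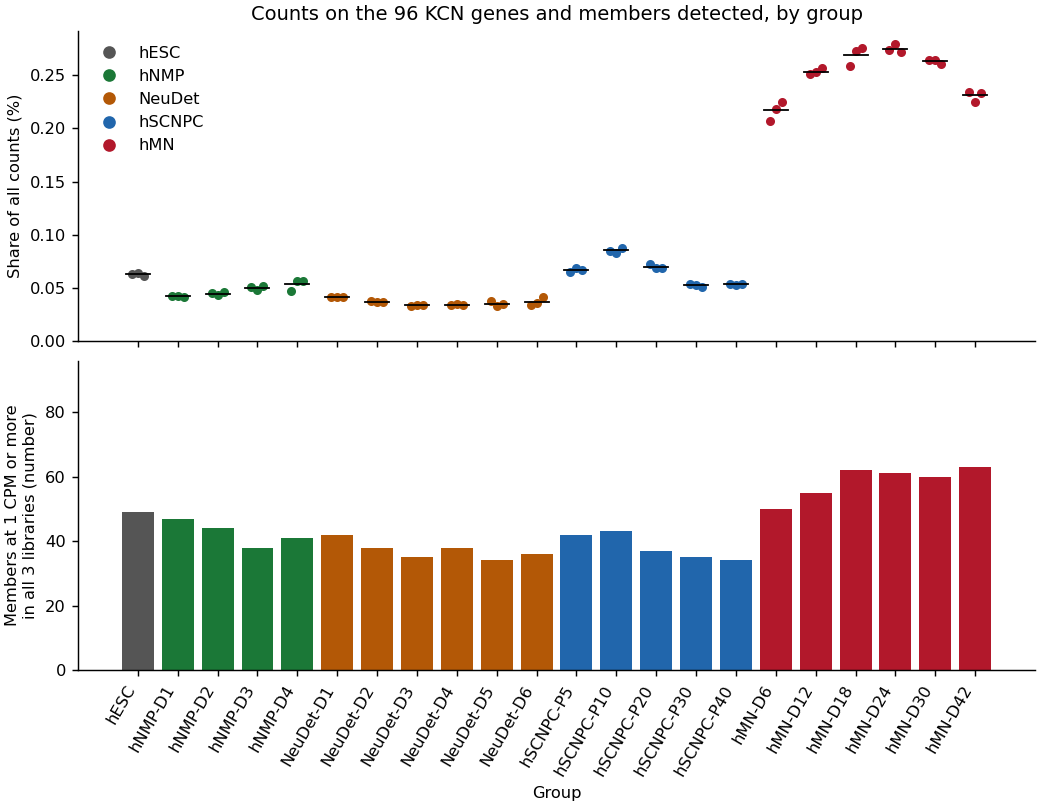
The upper panel gives the share of all counts that fell on the 96 KCN genes, in percent, with a point for each library and a bar at the mean of 3. The lower panel gives the number of members at 1 CPM or more in all 3 libraries of a group. The hMN libraries lie between 0.207% and 0.279%, above all others, and 34 (NeuDet-D5, hSCNPC-P40) to 63 members (hMN-D42) were detected.

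**Figure D2:**
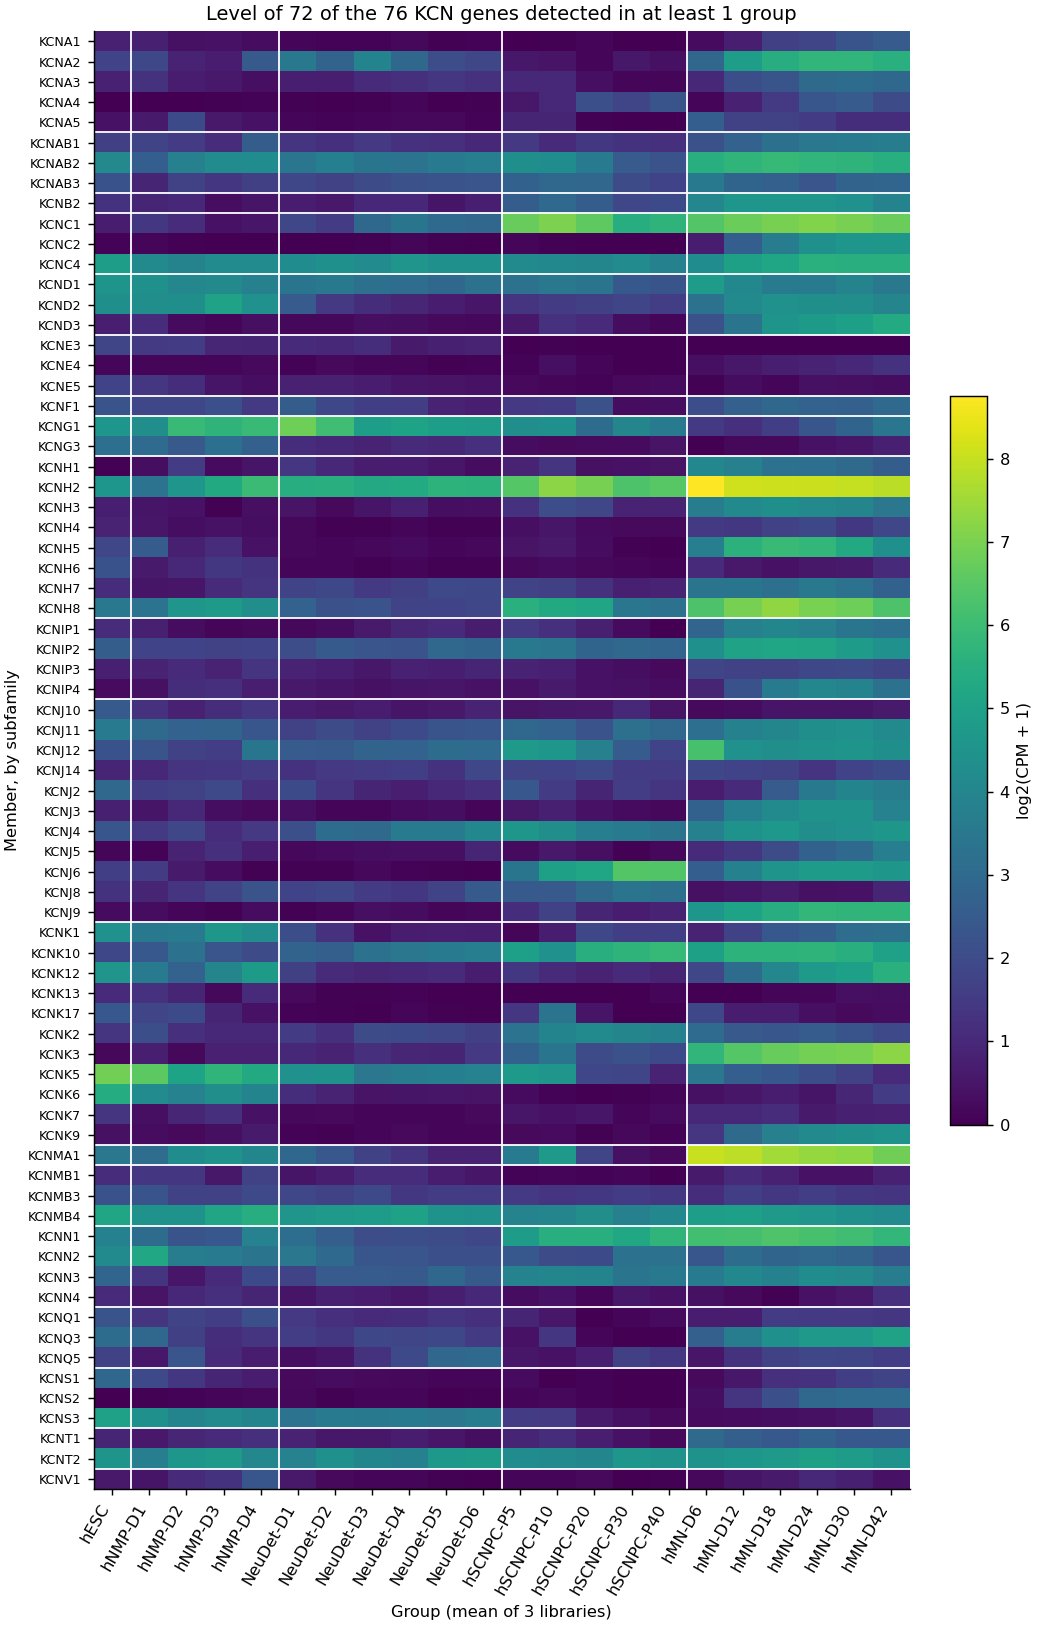
Mean level of 72 of the 76 members detected in at least 1 group, as log2(CPM + 1), with members in rows by subfamily, the 22 groups in columns and white lines between subfamilies and stages. Among the hMN columns KCNH2 reaches 431 CPM (hMN-D6) and KCNMA1 255 CPM (hMN-D6), and KCNK5 and KCNK6 have their brightest cells in hESC.

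The leading member, by RPKM (CPM per kilobase of exon, which allows levels of different genes to be compared), changed with the stage. KCNK5, a tandem-pore channel sensitive to pH, led in hESC with 30.8 ± 1.89 RPKM, followed by KCNS3, a silent subunit, with 9.97 ± 0.418 RPKM. KCNG1, a silent partner of KCNB channels, led in NeuDet-D1 with 20.9 ± 0.136 RPKM. KCNH2, the ERG channel of the delayed rectifier current, led in every hSCNPC group, with 20.6 ± 0.3497 RPKM in hSCNPC-P10, and in hMN-D6, hMN-D30 and hMN-D42, with 59.8 ± 1.99 RPKM in hMN-D6 and 34.7 ± 0.922 RPKM in hMN-D30.

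Differences over 8 steps were tested by edgeR, and neighbouring steps share a group. From hESC to hNMP-D4, 19 of the 77 members tested were higher, 38 lower and 20 did not pass, with a median log2 fold change of -0.61, while 26.7% of all genes tested were higher and 27.6% lower (54.3% in either direction). Without replicate 1 of hNMP-D4, 22 were higher and 32 lower. From hNMP-D4 to NeuDet-D6, 15 were higher and 39 lower (median -0.66), against 30.3% and 34.8% of all genes (65.1% in either direction), and without replicate 1 of hNMP-D4 the counts were 16 and 39. From NeuDet-D6 to hSCNPC-P5 the direction turned, with 40 higher and 15 lower (median 0.72), against 28.8% and 30.6% of all genes (59.4% in either direction). Scaling by library totals alone moved the median of all genes by -0.12 in this step and left 36 members higher and 18 lower. Markers of the cell types moved over this step too: all 5 neuron genes were higher, with sums of 49.8 to 52.8 CPM and 275 to 285 CPM, both neural progenitor genes were higher (3.32 to 4.37 CPM and 649 to 708 CPM), and both neuromesodermal genes were lower (525 to 551 CPM and 0 to 0.422 CPM). Of 5 astrocyte genes, which summed to 10.1 to 14.8 CPM and 447 to 451 CPM, 4 were tested and 1 was higher and 1 lower. The part of these markers in the KCN values was not tested. Between passages 5 and 40, 11 were higher and 37 lower (median -0.86), against 22.8% and 24.1% of all genes (46.9% in either direction).

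From hSCNPC-P10 to hMN-D6, 51 of 79 members tested were higher and 14 lower (median 1.00), against 38.5% and 36.7% of all genes (75.2% in either direction). No library is labelled as day 0 of hMN, the comparison crosses the 2 tables, and library totals moved the median of all genes by 0.23 and the share of calls that were higher from 51.2% to 61.3%, with 53 members higher and 14 lower. Passage 10 was taken as the start, and the labels do not give the passage that was differentiated. KCN genes had a larger share of counts in it (0.0850%) than in the other passages (0.0522% to 0.0696%). The calls at this step may depend on that choice. From hMN-D6 to hMN-D18, 50 were higher and 14 lower (median 0.82), against 27.3% and 27.1% of all genes (54.5% in either direction). From hMN-D18 to hMN-D30, 28 were higher and 19 lower (median 0.07), against 17.8% and 16.5% of all genes (34.3% in either direction). Under library totals the higher share of all calls in this step went from 51.9% to 65.1%, and 29 members were higher and 14 lower. Without replicate 3 of hMN-D30, 26 members were higher and 17 lower. From hMN-D30 to hMN-D42, 15 were higher and 33 lower (median -0.16), against 21.8% and 19.9% of all genes (41.7% in either direction), and without replicate 3 of hMN-D30 the counts were 12 and 27.

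**Figure D3:**
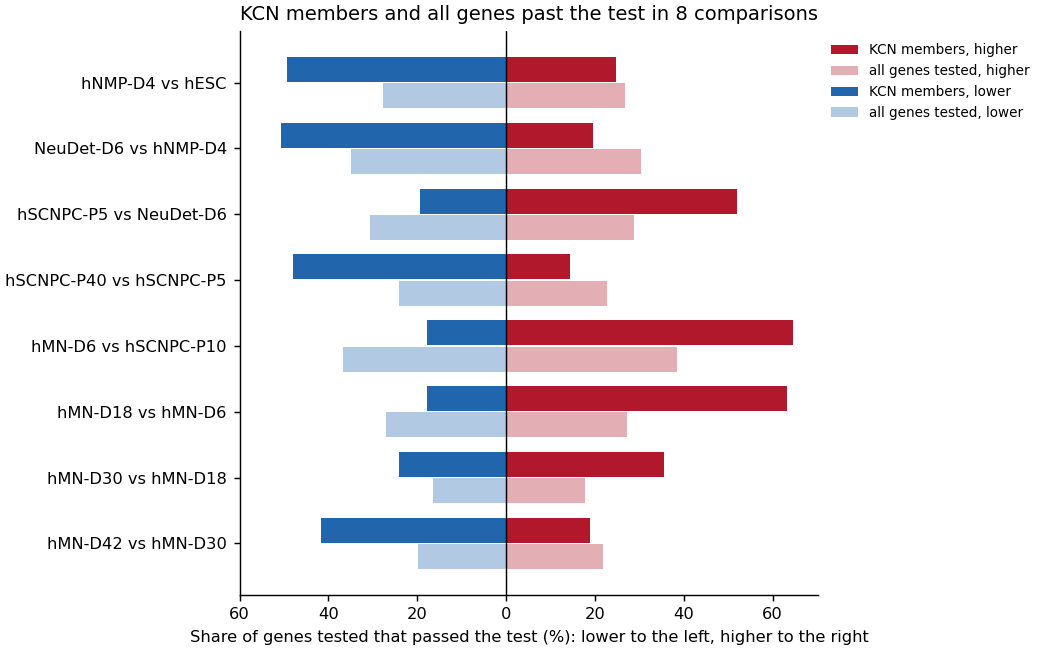
Share of KCN members tested (dark bars) and of all genes tested (pale bars) that passed edgeR's test in each of 8 comparisons, in percent, with lower genes to the left of 0 and higher genes to the right. Members were more often lower than higher at the steps to hNMP-D4 and NeuDet-D6, between passages 5 and 40 and at hMN-D42, and more often higher at hSCNPC-P5, hMN-D6, hMN-D18 and hMN-D30.

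Among the voltage-gated KCNA genes, whose channels underlie fast low-threshold currents along axons, the subfamily's sum stayed at or below 15.8 ± 2.96 CPM before the motor neuron stage and was 70.4 ± 1.43 CPM in hMN-D30. Of 5 KCNA genes tested, 4 were higher in hMN-D18 than in hMN-D6 and 4 higher in hMN-D30 than in hMN-D18, and KCNA5 was lower at both steps. All genes tested were higher in 27.3% and lower in 27.1% at the first step, and in 17.8% and 16.5% at the second. KCNA2, an axonal channel, had 0.259, 0.266 and 0.622 CPM in the hSCNPC-P10 libraries and 5.25, 6.04 and 7.72 CPM in hMN-D6 (edgeR log2 fold change 3.997 with SE 0.21, adjusted p = 9.99e-23). It went on to 43.3, 44.4 and 40.2 CPM in hMN-D18 (edgeR log2 fold change 2.75 with SE 0.08, adjusted p = 1.18e-32), and no library of one of these groups overlapped with another. KCNA2 also had an earlier, smaller rise, to 4.53 ± 0.628 CPM in hNMP-D4 from 2.35 ± 0.644 CPM in hESC (edgeR log2 fold change 0.94 with SE 0.20, adjusted p = 4.63e-05). It stood at 14.4 ± 2.76 CPM in NeuDet-D3 and 2.65 ± 0.461 CPM in NeuDet-D6 before it fell to 0.468 ± 0.0625 CPM in hSCNPC-P5 (log2 fold change -2.46). KCNA1, a partner of KCNA2 at the juxtaparanode of myelinated axons, was under 1 CPM on average in every group before hMN-D18 and rose from 0.194 ± 0.0262 CPM in hMN-D6 to 2.16 ± 0.0404 CPM in hMN-D18 and 3.799 ± 0.553 CPM in hMN-D30 (log2 fold changes 3.46 and 0.82). KCNA3, best known from lymphocytes, rose from 1.004 ± 0.305 CPM in hMN-D6 to 3.86 ± 0.782 CPM in hMN-D18 and 7.57 ± 0.8599 CPM in hMN-D30 (log2 fold changes 1.93 and 0.98).

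KCNA4 and KCNA5 had other courses. KCNA4, an A-type channel, had 4.19, 4.03 and 3.42 CPM in hSCNPC-P40 against 0.414, 0.575 and 0.422 CPM in hSCNPC-P5 (edgeR log2 fold change 3.04 with SE 0.34, adjusted p = 3.48e-10). It was lower in hMN-D6, at 0.107 ± 0.09801 CPM, than in hSCNPC-P10, at 1.02 ± 0.382 CPM (log2 fold change -3.17), and then rose to 1.83 ± 0.344 CPM in hMN-D18 and 4.66 ± 0.274 CPM in hMN-D30 (log2 fold changes 3.97 and 1.35). KCNA5 was highest on the first motor neuron day sequenced, at 5.75, 4.64 and 5.06 CPM. It fell to 2.303 ± 0.203 CPM in hMN-D18 and 1.19 ± 0.203 CPM in hMN-D30 (log2 fold changes -1.15 and -0.95). In hSCNPC-P40 KCNA5 had no count, which put it at least 16.1-fold lower than in hSCNPC-P5 at a floor of 3 counts over the group. KCNA6 had no count in any of the 66 libraries, and KCNA10 had 5 counts in all. KCNA7 passed the test in 1 comparison, lower in hSCNPC-P40, with 3 against 19 counts over the group in hSCNPC-P5, a ratio of 6.67 with a 95% exact interval of 1.96 to 35.2 for counting error only.

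KCNB2, of the delayed rectifiers of the neuronal cell body, had 0.641, 0.522 and 0.781 CPM in NeuDet-D6 and 5.44, 4.43 and 4.96 CPM in hSCNPC-P5 (edgeR log2 fold change 2.96 with SE 0.28, adjusted p = 1.39e-13), with no overlap. At passage 40 it was lower than at passage 5, at 2.898 ± 0.402 CPM (edgeR log2 fold change -0.76 with SE 0.25, adjusted p = 0.00924). It rose from 6.97 ± 1.86 CPM in hSCNPC-P10 to 15.6 ± 0.515 CPM in hMN-D6 and 23.3 ± 0.0968 CPM in hMN-D18 (log2 fold changes 1.13 and 0.58). It fell to 14.1 ± 0.517 CPM in hMN-D42 (log2 fold change -0.53 against hMN-D30).

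KCNC1 (ENSG00000129159.7, chromosome 11, 17734774 to 17856804 in GENCODE v44), the pore of a fast delayed rectifier that supports high firing rates, came on in the progenitors. Its libraries had 0.7701, 0.477 and 0.5001 CPM in hESC, 6.27, 6.81 and 6.13 CPM in NeuDet-D6 and 93.4, 114 and 103 CPM in hSCNPC-P5. It rose at the step to hSCNPC-P5 (edgeR log2 fold change 4.02 with SE 0.10, adjusted p = 1.77e-37), after an earlier rise between hNMP-D4 and NeuDet-D6 (edgeR log2 fold change 3.81 with SE 0.21, adjusted p = 6.44e-23), and the groups did not overlap. KCNC1 was highest among the passages at hSCNPC-P10, with 128 ± 10.3 CPM, and lower at hSCNPC-P40, with 50.9 ± 3.73 CPM (edgeR log2 fold change -1.01 with SE 0.09, adjusted p = 1.69e-14). It was somewhat lower in hMN-D6 than in hSCNPC-P10, at 83.4 ± 5.75 CPM (edgeR log2 fold change -0.66 with SE 0.06, adjusted p = 6.91e-13). It rose again to 124 ± 7.68 CPM in hMN-D18 (edgeR log2 fold change 0.57 with SE 0.06, adjusted p = 5.94e-11).

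KCNC2, of the same current (35.7% of its exonic length overlaps another gene, with the strand setting of the counting not stated), had only 2 counts over the hSCNPC-P10 libraries and 0.774, 0.718 and 0.338 CPM in hMN-D6, a ratio of 17.5 with a 95% exact interval of 4.52 to 149 for counting error only. It then rose to 11.4, 12.8 and 12.05 CPM in hMN-D18 (edgeR log2 fold change 4.304 with SE 0.16, adjusted p = 1.03e-28) and 22.96 ± 0.689 CPM in hMN-D30 (edgeR log2 fold change 0.93 with SE 0.09, adjusted p = 1.17e-12). KCNC4, an A-type member, lay between 13.5 CPM in hSCNPC-P40 and 46.4 CPM in hMN-D24 on average, and rose from 18.2 ± 1.94 CPM in hMN-D6 to 35.1 ± 0.425 CPM in hMN-D18 (edgeR log2 fold change 0.94 with SE 0.06, adjusted p = 2.87e-18).

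The KCND genes encode the A-type current of dendrites and cell bodies, and all 3 were higher in hMN-D6 than in hSCNPC-P10, against 38.5% of all genes. KCND2 had 15.4, 19.9 and 25.9 CPM in hNMP-D4, against 17.3, 21.9 and 19.4 CPM in hESC. It fell to 0.501, 0.574 and 0.234 CPM in NeuDet-D6 (edgeR log2 fold change -5.52 with SE 0.22, adjusted p = 4.26e-28). It rose again from 1.97 ± 0.263 CPM in hSCNPC-P10 to 8.82 ± 0.0504 CPM in hMN-D6 and 20.6 ± 1.09 CPM in hMN-D18 (log2 fold changes 2.1 and 1.23). KCND3 had 3.21, 3.67 and 3.76 CPM in hMN-D6, 22.05, 22.4 and 22.2 CPM in hMN-D18 and 38.7, 40.3 and 39.9 CPM in hMN-D42, and was higher at each of the 4 steps from hSCNPC-P10 on (log2 fold changes 1.28, 2.64, 0.43 and 0.42). KCND1 went the other way after its top of 27.2 ± 0.438 CPM in hMN-D6, with 10.9 ± 1.46 CPM in hMN-D18 (edgeR log2 fold change -1.31 with SE 0.08, adjusted p = 1.37e-19).

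The KCNIP genes encode calcium-binding partners of KCND channels, and all 4 were higher in hMN-D6 than in hSCNPC-P10, against 38.5% of all genes. The call of KCNIP4 was lost with DESeq2 and without replicate 3 of hMN-D6 or replicate 1 or 3 of hSCNPC-P10 (log2 fold changes 0.51 to 0.55 without 1 of these libraries). KCNIP2 (13.1% of its exons overlap another gene) had 9.85, 9.52 and 10.2 CPM in hSCNPC-P10, 17.9, 20.6 and 22.3 CPM in hMN-D6 and 32.3, 34.4 and 38.7 CPM in hMN-D18 (log2 fold changes 1.003 and 0.79). KCNIP4 (46.3% overlap) rose later and more steeply, from 0.895 ± 0.186 CPM in hMN-D6 to 11.1 ± 1.05 CPM in hMN-D18 (edgeR log2 fold change 3.63 with SE 0.17, adjusted p = 1.66e-23). KCNIP1 was lower at passage 40 than at passage 5, going from 1.804 ± 0.0562 CPM in hSCNPC-P5 to 1 count over the 3 hSCNPC-P40 libraries, a ratio of 101 with a 95% exact interval of 17.7 to 4035 for counting error only. KCNIP1 rose at the motor neuron step, from 1.31 ± 0.162 CPM in hSCNPC-P10 to 6.19 ± 0.351 CPM in hMN-D6 and 15.3 ± 0.795 CPM in hMN-D18 (log2 fold changes 2.18 and 1.31). By hMN-D42 KCNIP2 and KCNIP4 had fallen to 20.3 ± 1.24 CPM and 8.62 ± 1.401 CPM (log2 fold changes -0.46 and -0.69 against hMN-D30).

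The KCNAB genes encode cytoplasmic beta subunits that bind KCNA channels. All 3 were higher in hSCNPC-P5 than in NeuDet-D6 and higher again in hMN-D6 than in hSCNPC-P10, against 28.8% and 38.5% of all genes. KCNAB2 had 20.3, 19.1 and 19.8 CPM in hSCNPC-P5, 3.42, 3.96 and 3.94 CPM in hSCNPC-P40 (edgeR log2 fold change -2.38 with SE 0.12, adjusted p = 2.57e-23) and 41.9, 45.3 and 43.6 CPM in hMN-D6, and rose from there to 57.3 ± 1.52 CPM in hMN-D18 (log2 fold change 0.395). KCNAB1, whose product speeds inactivation, rose through the motor neuron stage from 3.55 ± 0.377 CPM in hMN-D6 to 8.37 ± 1.12 CPM in hMN-D18 and 11.6 ± 1.37 CPM in hMN-D30 (log2 fold changes 1.24 and 0.48). KCNAB3 fell from 10.7 ± 0.523 CPM to 5.48 ± 0.236 CPM over the same days (edgeR log2 fold change -0.96 with SE 0.11, adjusted p = 3.19e-10). The KCNE genes, single-pass partners of KCNQ1 and KCNH2, were at low levels throughout, with a sum of at most 5.16 ± 0.283 CPM, in hESC. KCNE3 (16.9% overlap) had 2.58 ± 0.323 CPM and KCNE5 2.36 ± 0.266 CPM in hESC, and both fell by hNMP-D4 (log2 fold changes -1.55 and -3.16). KCNE3 had no count in hSCNPC-P5, at least 15.3-fold lower than in NeuDet-D6, and KCNE1 stayed under 1 CPM on average in every group.

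Among the silent subunits, which change the gating of KCNB channels, KCNS3 was highest in hESC, KCNG1 in NeuDet-D1, KCNV1 in hNMP-D4 and KCNS2 in hMN-D30. KCNS3 had 29.9, 32.5 and 31.1 CPM in the hESC libraries, 13.9, 14.5 and 15.1 CPM in hNMP-D4 and 1.66, 2.07 and 2.16 CPM in hSCNPC-P5, with log2 fold changes of -1.099 from hESC and -2.58 from NeuDet-D6. KCNG1 rose to 58.6 ± 6.88 CPM in hNMP-D4 from 23.2 ± 2.45 CPM in hESC (edgeR log2 fold change 1.34 with SE 0.10, adjusted p = 9.73e-18). It had its highest values in NeuDet-D1, at 113, 114 and 113 CPM. By NeuDet-D6 it was at 27.3 ± 3.78 CPM (edgeR log2 fold change -1.16 with SE 0.09, adjusted p = 1.18e-16). In hMN-D6 it was at 1.84 ± 0.331 CPM against 20.1 ± 1.405 CPM in hSCNPC-P10 (edgeR log2 fold change -3.47 with SE 0.13, adjusted p = 1.2e-28). KCNG3 lay at 8.23 ± 0.818 CPM in hESC, then 5.47 ± 1.84 CPM in hNMP-D4. It fell to 1.25 ± 0.206 CPM in NeuDet-D6 (log2 fold change -2.21).

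KCNV1, another silent subunit, was detected in hNMP-D3 and hNMP-D4 alone, with 1.16, 1.77 and 1.37 CPM and 2.47, 5.297 and 4.32 CPM, against 0.605, 0.5299 and 0.438 CPM in hESC (edgeR log2 fold change 2.93 with SE 0.41, adjusted p = 2.67e-08). It was down to 2 counts over the NeuDet-D6 libraries, a ratio of 202 with a 95% exact interval of 55.4 to 1678 for counting error only. KCNS2 was under 1 CPM on average in every group before hMN-D12, and had 0.221, 0.338 and 0.241 CPM in hMN-D6, 2.95, 3.63 and 3.6 CPM in hMN-D18 (edgeR log2 fold change 3.62 with SE 0.29, adjusted p = 1.2e-14) and 7.38 ± 0.378 CPM in hMN-D30 (edgeR log2 fold change 1.13 with SE 0.16, adjusted p = 3.29e-07). KCNS1 had 6.72 ± 1.07 CPM in hESC and fell to 0.613 ± 0.235 CPM in hNMP-D4 (edgeR log2 fold change -3.41 with SE 0.36, adjusted p = 1.54e-11). It rose from 0.172 ± 0.0786 CPM to 1.29 ± 0.254 CPM between hMN-D6 and hMN-D18 (edgeR log2 fold change 2.84 with SE 0.39, adjusted p = 2.42e-08). KCNF1 was lower in hSCNPC-P40, at 0.262 ± 0.128 CPM, than in hSCNPC-P5, at 1.75 ± 0.693 CPM (edgeR log2 fold change -2.76 with SE 0.36, adjusted p = 3.33e-09), with 3.46 ± 0.799 CPM in hSCNPC-P20 between them. It was at 6.596 ± 1.28 CPM in hMN-D18.

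All 8 KCNH genes, the ether-a-go-go family, were higher in hMN-D6 than in hSCNPC-P10, and their summed level went from 195 ± 0.594 CPM to 562 ± 21.4 CPM. Of the 8, 7 had also been higher in hSCNPC-P5 than in NeuDet-D6 and none lower, of which KCNH5 and KCNH6 lost the call under library totals, while 5 were lower and none higher in hMN-D30 than in hMN-D18. The shares of all genes were 38.5% higher at hMN-D6, 28.8% higher at hSCNPC-P5 and 16.5% lower at hMN-D30. KCNH2 (ENSG00000055118.14, chromosome 7, 150944961 to 150978321), the gene of the long-QT channel, had 24.2, 23.4 and 22.3 CPM in the hESC libraries, 55.6, 65.8 and 64.8 CPM in hNMP-D4, 149.6, 145 and 149.9 CPM in hSCNPC-P10 and 414, 439 and 439 CPM in hMN-D6. It rose at the step into hMN-D6 (edgeR log2 fold change 1.5 with SE 0.04, adjusted p = 1.2e-34). It then fell to 268 ± 10.7 CPM in hMN-D18 (edgeR log2 fold change -0.68 with SE 0.04, adjusted p = 1.53e-20), with 279 ± 9.24 CPM already in hMN-D12. KCNH5, an EAG channel, had 0.561, 0.533 and 0.414 CPM in hSCNPC-P10, 11.6, 12.7 and 13.2 CPM in hMN-D6, 56.3, 58.01 and 61.02 CPM in hMN-D18 and 19.2, 19.1 and 21.8 CPM in hMN-D42, a rise and then a fall, with log2 fold changes of 4.58, 2.23, -0.59 and -0.93 at the 4 steps. KCNH8, an ELK channel, went from 78.95 ± 3.93 CPM in hMN-D6 over 155 ± 3.78 CPM in hMN-D18 to 78.98 ± 3.301 CPM in hMN-D42 (log2 fold changes 0.98, -0.48 and -0.49).

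KCNH1, the first EAG gene (46.8% of its exons overlap another gene), was like KCNH2 in having its top in hMN-D6, at 14.3, 16.5 and 16.9 CPM against 1.77, 1.13 and 1.71 CPM in hSCNPC-P10 (edgeR log2 fold change 3.29 with SE 0.13, adjusted p = 7.76e-28). It fell to 8.67 ± 0.4696 CPM in hMN-D18 (log2 fold change -0.87). KCNH3, another ELK gene, rose from 11.97 ± 1.69 CPM in hMN-D6 to 19.7 ± 0.356 CPM in hMN-D18. It fell to 10.1 ± 0.653 CPM in hMN-D42 (log2 fold changes 0.72 and, against hMN-D30, -0.55). KCNH7, an ERG gene of neurons, lay between 8.37 and 10.6 CPM on average from hMN-D6 to hMN-D30. It fell to 5.603 ± 0.744 CPM in hMN-D42 (edgeR log2 fold change -0.61 with SE 0.12, adjusted p = 6.99e-05). KCNH8 had also been expressed before, with 19.1 ± 4.65 CPM in hNMP-D4, 2.67 ± 0.788 CPM in NeuDet-D6, 46.2 ± 2.99 CPM in hSCNPC-P5 and 8.52 ± 0.422 CPM in hSCNPC-P40, each step past the test (log2 fold changes -2.94, 4.16 and -2.43). KCNH6 had its highest mean in hESC, at 3.56 ± 0.495 CPM.

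The KCNQ genes include those of the M current, which damps repetitive firing. Of 5 tested, 4 were lower in hNMP-D4 than in hESC, against 27.6% of all genes. In hMN-D18, 4 were higher than in hMN-D6, against 27.3% of all genes. KCNQ3, a subunit of the M channel, rose at each of the 3 tested steps within hMN, with 6.14, 4.47 and 5.498 CPM in hMN-D6, 17.8, 20.95 and 20.6 CPM in hMN-D18 and 32.99, 29.2 and 33.6 CPM in hMN-D42 (log2 fold changes 1.898, 0.34 and 0.37). In the progenitors KCNQ3 fell to 1 count over the hSCNPC-P40 libraries from 19 in hSCNPC-P5, a ratio of 20.01 with a 95% exact interval of 3.18 to 831 for counting error only. KCNQ5, whose channel also carries M current, had its highest values on the late NeuDet days, with 0.577, 0.689 and 0.462 CPM in hNMP-D4, 6.49, 6.34 and 7.81 CPM in NeuDet-D6 and 0.532, 0.345 and 0.474 CPM in hSCNPC-P5 (log2 fold changes 3.52 and -3.9). KCNQ1, the cardiac member, stayed under 4 CPM on average in all groups.

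Of 11 inward rectifiers tested, 7 were higher and 2 lower in hSCNPC-P5 than in NeuDet-D6, against 28.8% and 30.6% of all genes. In hMN-D6, 5 were higher and 5 lower than in hSCNPC-P10, against 38.5% and 36.7% of all genes. In hMN-D18, 8 were higher and 1 lower than in hMN-D6, against 27.3% and 27.1% of all genes. KCNJ6 (ENSG00000157542.11, chromosome 21, 37607373 to 38121345), a channel gated by G proteins, had 1 count over the 3 NeuDet-D6 libraries and 9.93, 8.63 and 10.1 CPM in hSCNPC-P5, a ratio of 956 with a 95% exact interval of 171 to 37823 for counting error only. It had 31.4, 29.1 and 30.4 CPM in hSCNPC-P10, 89.5, 79.6 and 85.4 CPM in hSCNPC-P30 and 78.6, 85.8 and 84.1 CPM in hSCNPC-P40. It was higher at passage 40 than at passage 5 (edgeR log2 fold change 3.12 with SE 0.13, adjusted p = 2.61e-27), with no overlap. In hMN-D6 it was down to 5.199, 4.98 and 5.401 CPM (edgeR log2 fold change -2.59 with SE 0.08, adjusted p = 4.71e-32). It rose to 22.2 ± 1.79 CPM in hMN-D18 (edgeR log2 fold change 2.103 with SE 0.08, adjusted p = 3.4e-27). Markers of other cell types moved over the same passages. The 6 mesenchymal genes, 2 of them higher and 4 lower, summed to 64.7 to 69.3 CPM in hSCNPC-P5 and 38.9 to 41.5 CPM in hSCNPC-P40. Of the 5 neuron genes 2 were higher and 2 lower, with sums of 275 to 285 CPM and 359 to 373 CPM. Their part in the KCNJ6 values was not tested.

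The partners of KCNJ6 in G protein-gated channels rose at the motor neuron step. KCNJ9 had 2.46, 1.997 and 2.49 CPM in hSCNPC-P10 and 20.7, 24.2 and 24.6 CPM in hMN-D6 (edgeR log2 fold change 3.27 with SE 0.11, adjusted p = 9.39e-32). It rose further to 42.7 ± 2.997 CPM in hMN-D18 and 51.6 ± 1.76 CPM in hMN-D30 (log2 fold changes 0.88 and 0.28). KCNJ3 had 0.561, 0.799 and 0.777 CPM in hSCNPC-P10, 5.53, 5.07 and 6.22 CPM in hMN-D6 and 21.4, 21.1 and 22.4 CPM in hMN-D30 (log2 fold changes 2.96 at hMN-D6, 1.59 at hMN-D18 and 0.37 at hMN-D30). It fell to 13.9 ± 0.753 CPM in hMN-D42 (edgeR log2 fold change -0.64 with SE 0.08, adjusted p = 5.25e-09). KCNJ5, of the cardiac channel of this kind, was higher at each of the 4 steps and reached 12.2, 12.9 and 12.4 CPM in hMN-D42, against 1.11 ± 0.4199 CPM in hMN-D6 (log2 fold changes 1.07, 1.45, 1.18 and 0.84).

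The strong inward rectifiers had separate courses. KCNJ12 had 23.9, 20.5 and 24.8 CPM in hSCNPC-P10, 72.01, 70.2 and 75.2 CPM in hMN-D6 and 20.4, 17.5 and 19.5 CPM in hMN-D18, a single high time point with log2 fold changes of 1.604 into it and -1.92 out of it. KCNJ12 shares near-identical sequence with KCNJ18, which had 13 counts in all libraries together, so its reads may have been split and its values are uncertain. KCNJ2, whose channel stabilises the resting potential, was lower in hMN-D6, at 0.608, 0.633 and 0.482 CPM, than in hSCNPC-P10, at 1.73, 1.398 and 2.798 CPM (edgeR log2 fold change -1.82 with SE 0.25, adjusted p = 5.95e-09). It then rose to 4.603, 4.605 and 5.12 CPM in hMN-D18 and 14.3 ± 0.661 CPM in hMN-D30 (log2 fold changes 3.04 and 1.59). KCNJ4 (12.6% overlap) rose in the NeuDet stage, from 1.77 ± 0.6202 CPM in hNMP-D4 to 15.9 ± 1.83 CPM in NeuDet-D6 (edgeR log2 fold change 3.15 with SE 0.16, adjusted p = 9.33e-25).

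KCNJ8 (10.7% overlap), an ATP-sensitive channel known from pericytes and vascular muscle, rose from 4.49, 5.58 and 3.795 CPM in hSCNPC-P5 to 8.1, 8.602 and 8.797 CPM in hSCNPC-P40 (edgeR log2 fold change 0.89 with SE 0.18, adjusted p = 3.69e-05). It had 0.221, 0.295 and 0.386 CPM in hMN-D6 against 4.92, 4.06 and 4.3 CPM in hSCNPC-P10 (edgeR log2 fold change -3.89 with SE 0.33, adjusted p = 9.17e-15). The 4 endothelial and pericyte markers summed to 12.1 to 14.6 CPM in hSCNPC-P5 and 15.9 to 19.8 CPM in hSCNPC-P40. Over that step RGS5 rose from 2.13 ± 0.262 CPM to 13.3 ± 2.33 CPM, PDGFRB fell from 10.9 ± 1.44 CPM to 4.42 ± 0.348 CPM, and PECAM1 and CDH5 were at 0 in hSCNPC-P40. The same markers summed to 7.64 to 8.85 CPM in hSCNPC-P10 and 4.92 to 6.64 CPM in hMN-D6, and their part in the KCNJ8 values was not tested. KCNJ11, the ATP-sensitive channel of neurons and beta cells, was higher in hMN-D30, at 20.4 ± 0.659 CPM, than in hMN-D18, at 15.1 ± 0.205 CPM (log2 fold change 0.44). KCNJ10, the channel of astrocytes, was highest in hESC, at 4.51 ± 0.172 CPM, and lay under 1 CPM on average in all hSCNPC and hMN groups.

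**Figure D4:**
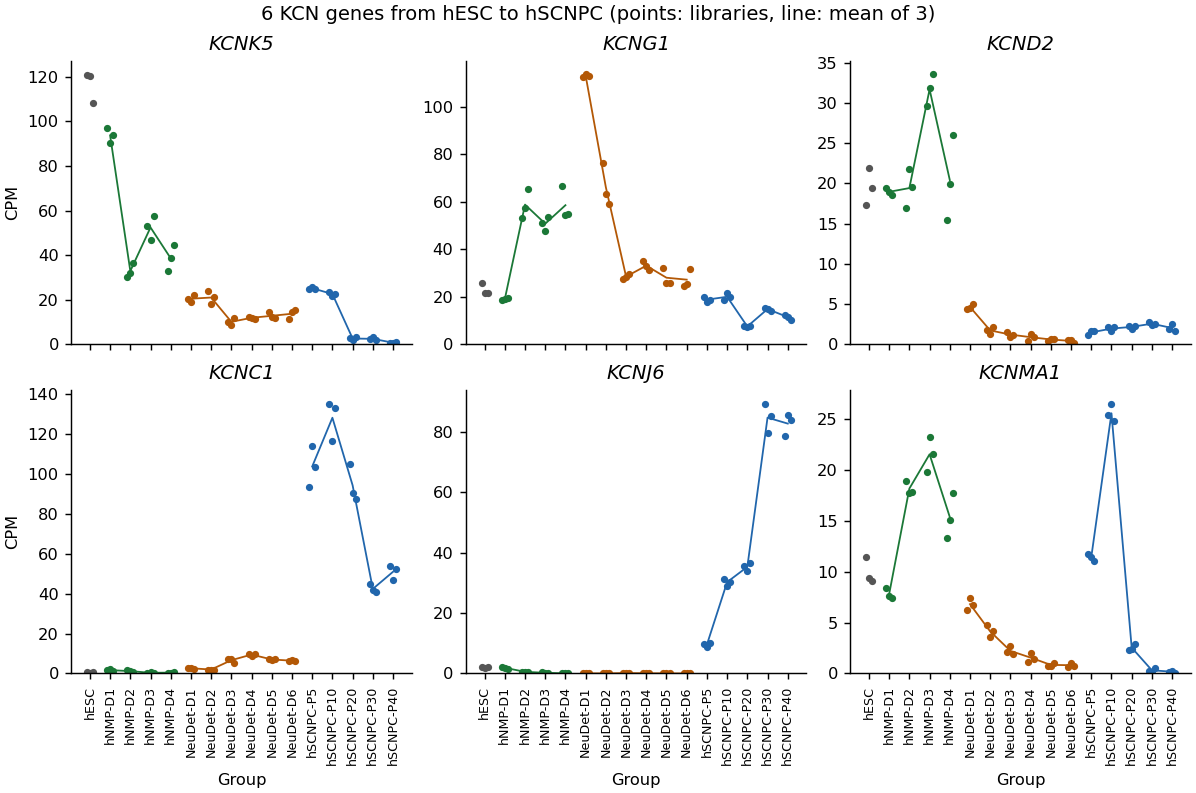
Level of 6 members in CPM over the 16 groups from hESC to hSCNPC-P40, with a point for each library and a line through the means of 3 within each stage. KCNK5 falls from 117 CPM in hESC, KCNG1 peaks at 113 CPM in NeuDet-D1, and KCND2 is at 0.437 CPM in NeuDet-D6. KCNC1, KCNJ6 and KCNMA1 are higher in hSCNPC-P5 than in NeuDet-D6, after which KCNJ6 goes to 82.8 CPM and KCNMA1 to 0.174 CPM at passage 40.

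The tandem-pore KCNK genes, whose leak currents hold the resting potential, summed to 213 ± 14.7 CPM in hESC, 25.4 ± 0.605 CPM in NeuDet-D3 and 266 ± 3.96 CPM in hMN-D42. Of 11 tested, 7 were lower and 3 higher in NeuDet-D6 than in hNMP-D4, against 34.8% and 30.3% of all genes. In hSCNPC-P5, 7 were higher and 1 lower than in NeuDet-D6, against 28.8% and 30.6% of all genes. KCNK5 (ENSG00000164626.9, chromosome 6, 39188971 to 39229475) had 121, 120.3 and 108 CPM in the hESC libraries, 32.7, 38.6 and 44.5 CPM in hNMP-D4 and 11.2, 14.6 and 15.5 CPM in NeuDet-D6, falling at both steps (edgeR log2 fold change -1.59 with SE 0.10, adjusted p = 1.9e-18 for the first). It was higher again in hSCNPC-P5, at 25.2 ± 0.381 CPM (log2 fold change 0.89). It fell to 0.716, 0.605 and 1.04 CPM in hSCNPC-P40 (edgeR log2 fold change -4.93 with SE 0.19, adjusted p = 9.59e-28). Within the motor neurons KCNK5 fell at all 3 steps, from 10.1 ± 0.995 CPM in hMN-D6 to 1.09 ± 0.378 CPM in hMN-D42 (log2 fold changes -1.23, -0.91 and -1.098). KCNK6 had 46.4, 40.7 and 38.9 CPM in the hESC libraries, 9.45, 16.9 and 17.4 CPM in hNMP-D4 and 0.306, 0.287 and 0.547 CPM in NeuDet-D6 (log2 fold changes -1.51 and -5.37).

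KCNK1 and KCNK12 both fell at the NeuDet stage and rose within the motor neuron stage. Between these stages their courses differed. KCNK1 was lower in hSCNPC-P5, at 0.116 CPM on average, than in NeuDet-D6, and higher in hSCNPC-P40 than in hSCNPC-P5, while KCNK12 went the other way at both steps. KCNK1, a weak leak channel, had 12.96, 18.2 and 25.3 CPM in hNMP-D4 and 0.585, 0.522 and 0.664 CPM in NeuDet-D6 (edgeR log2 fold change -5.06 with SE 0.23, adjusted p = 1.57e-25). It rose from 0.787 ± 0.106 CPM in hMN-D6 to 7.82 ± 0.607 CPM in hMN-D30 (log2 fold changes 2.44 and 0.88). KCNK12, of the THIK channels, had 13.2, 32.5 and 33.0 CPM in hNMP-D4 and 0.529, 0.679 and 0.703 CPM in NeuDet-D6 (edgeR log2 fold change -5.42 with SE 0.26, adjusted p = 4.94e-23). It had 2.54, 2.87 and 2.46 CPM in hMN-D6 and 45.6, 46.1 and 47.1 CPM in hMN-D42, and was higher at each of the 3 steps within hMN (log2 fold changes 2.57, 0.92 and 0.65). KCNK13, the other THIK gene, was detected in hNMP-D1 alone, and had 1.12 ± 0.139 CPM in hNMP-D4 and 1 count over the NeuDet-D6 libraries, a ratio of 112 with a 95% exact interval of 19.4 to 4469 for counting error only.

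KCNK3 and KCNK9, the TASK channels closed by acid and by transmitters in motor neurons, rose in the hMN groups. KCNK3 had 9.16, 9.19 and 10.1 CPM in hSCNPC-P10, 52.5, 50.8 and 55.6 CPM in hMN-D6, 103, 105 and 106 CPM in hMN-D18 and 151, 149 and 153 CPM in hMN-D42, with no overlap between these groups. It was higher at all 4 steps (log2 fold changes 2.44, 0.99, 0.28 and 0.26). It was second to KCNH2 in RPKM in hMN-D42, at 24.4 ± 0.2896 RPKM against 32.2 ± 0.872 RPKM. KCNK9 rose from 1.49, 1.56 and 1.74 CPM in hMN-D6 to 11.9, 13.7 and 13.3 CPM in hMN-D18 (edgeR log2 fold change 3.02 with SE 0.13, adjusted p = 5.35e-26) and 19.5 ± 0.379 CPM in hMN-D30 (log2 fold change 0.595).

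KCNK10 and KCNK2 encode TREK channels, opened by stretch and lipids, and both had their highest means in the passaged progenitors. KCNK10 had 27.3, 32.4 and 29.3 CPM in hSCNPC-P5 and 56.3, 60.01 and 54.4 CPM in hSCNPC-P40 (edgeR log2 fold change 0.95 with SE 0.10, adjusted p = 6.83e-12), with 20.4 ± 1.17 CPM at passage 10. KCNK2 rose to 9.06 ± 0.7201 CPM in hSCNPC-P5, against 2.14 ± 0.295 CPM in NeuDet-D6 (edgeR log2 fold change 2.08 with SE 0.15, adjusted p = 2.75e-18). It fell at the motor neuron step to 7.27 ± 0.764 CPM from 14.6 ± 0.834 CPM (edgeR log2 fold change -1.04 with SE 0.12, adjusted p = 3.2e-11). KCNK17, an alkali-activated channel, was detected in 6 groups and had its highest mean in hSCNPC-P10. Among the passages it had 1.54, 1.84 and 1.53 CPM in hSCNPC-P5 and 9.55, 9.65 and 8.91 CPM in hSCNPC-P10. It then had 0.542, 0.294 and 0.365 CPM in hSCNPC-P20 and no count in hSCNPC-P30 or hSCNPC-P40. Outside the passages KCNK17 had at least 1 CPM on average in several groups, among them hESC and hMN-D6. It was lower in hNMP-D4 than in hESC, and lower in hMN-D18 than in hMN-D6. It was at least 54.3-fold higher in hSCNPC-P5 than in NeuDet-D6, where it had no count, and at least 30.5-fold lower in hSCNPC-P40 than in hSCNPC-P5, at a floor of 3 counts over the group.

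KCNMA1 (ENSG00000156113.23, chromosome 10, 76869601 to 77638369), the large-conductance channel opened by calcium and voltage, went down, up, down and up over the stages. It fell from 13.3, 15.1 and 17.8 CPM in hNMP-D4 to 0.613, 1.04 and 0.781 CPM in NeuDet-D6 (edgeR log2 fold change -4.28 with SE 0.18, adjusted p = 1.32e-27). It rose to 11.8, 11.4 and 11.1 CPM in hSCNPC-P5 (edgeR log2 fold change 3.81 with SE 0.19, adjusted p = 8.68e-25). Over the passages it had 25.4, 26.6 and 24.9 CPM in hSCNPC-P10, 2.33, 2.45 and 2.86 CPM in hSCNPC-P20 and 0.165, 0.269 and 0.0867 CPM in hSCNPC-P40 (edgeR log2 fold change -6.09 with SE 0.28, adjusted p = 1.01e-25 from passage 5). At passage 40 KCNMA1 was thus lower, and KCNJ6 higher, than at passage 5. In hMN-D6 it was at 239, 258 and 269 CPM (edgeR log2 fold change 3.28 with SE 0.05, adjusted p = 3.56e-45). It then fell at each step, to 175, 188 and 191 CPM in hMN-D18 and 117, 115 and 117 CPM in hMN-D42 (log2 fold changes -0.47, -0.28 and -0.38).

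Of the beta subunits of this channel, KCNMB4, the neuronal one, lay between 13.2 CPM in hSCNPC-P30 and 42.4 CPM in hNMP-D4 on average. It had 14.9 ± 1.48 CPM in hSCNPC-P10 and 28.2 ± 2.05 CPM in hMN-D6 (edgeR log2 fold change 0.88 with SE 0.07, adjusted p = 4.51e-16). KCNMB1, the smooth muscle one, fell from 2.35 ± 1.97 CPM in hNMP-D4 to 0.453 ± 0.178 CPM in NeuDet-D6 (edgeR log2 fold change -2.48 with SE 0.35, adjusted p = 1.6e-08), and KCNMB2 (32.1% overlap) stayed under 1 CPM on average in every group.

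The small-conductance KCNN channels, which carry the afterhyperpolarisation of motor neurons, were led by KCNN1 in RPKM in the hSCNPC and hMN groups. Of the 4, 3 were higher and 1 lower in hSCNPC-P5 than in NeuDet-D6, against 28.8% and 30.6% of all genes. KCNN1 had 2.201, 3.18 and 2.65 CPM in NeuDet-D6, 29.1, 27.03 and 26.6 CPM in hSCNPC-P5 (edgeR log2 fold change 3.37 with SE 0.13, adjusted p = 3.57e-29), 55.6, 49.5 and 51.1 CPM in hSCNPC-P40 (edgeR log2 fold change 0.93 with SE 0.11, adjusted p = 1.33e-10) and 79.4, 83.9 and 77.5 CPM in hMN-D18. KCNN3 rose to 13.9 ± 0.759 CPM in hSCNPC-P5, against 4.57 ± 0.809 CPM in NeuDet-D6 (edgeR log2 fold change 1.63 with SE 0.14, adjusted p = 3.67e-15) and stayed between 9.29 and 18.2 CPM on average in the later groups. KCNN2 had its highest level in hNMP-D1, at 35.97, 34.8 and 37.6 CPM, and fell from 9.26 ± 1.47 CPM in hNMP-D4 to 3.401 ± 0.858 CPM in NeuDet-D6 (edgeR log2 fold change -1.52 with SE 0.13, adjusted p = 1.36e-14). It was higher at passage 40, at 8.799 ± 0.877 CPM, than at passage 5, at 4.27 ± 0.687 CPM (log2 fold change 1.04). Of the sodium-activated channels, KCNT1 rose from 1.201 ± 0.3701 CPM in hSCNPC-P10 to 7.06 ± 0.523 CPM in hMN-D6 (edgeR log2 fold change 2.46 with SE 0.17, adjusted p = 1.53e-18). It fell to 4.34 ± 0.488 CPM in hMN-D18 (log2 fold change -0.701), while KCNT2 lay between 12.3 and 30.3 CPM on average in all groups. KCNU1, the sperm channel, and KCNRG, a soluble regulator of KCNA assembly (66.8% of its exons overlap another gene), stayed under 1 CPM on average throughout.

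**Figure D5:**
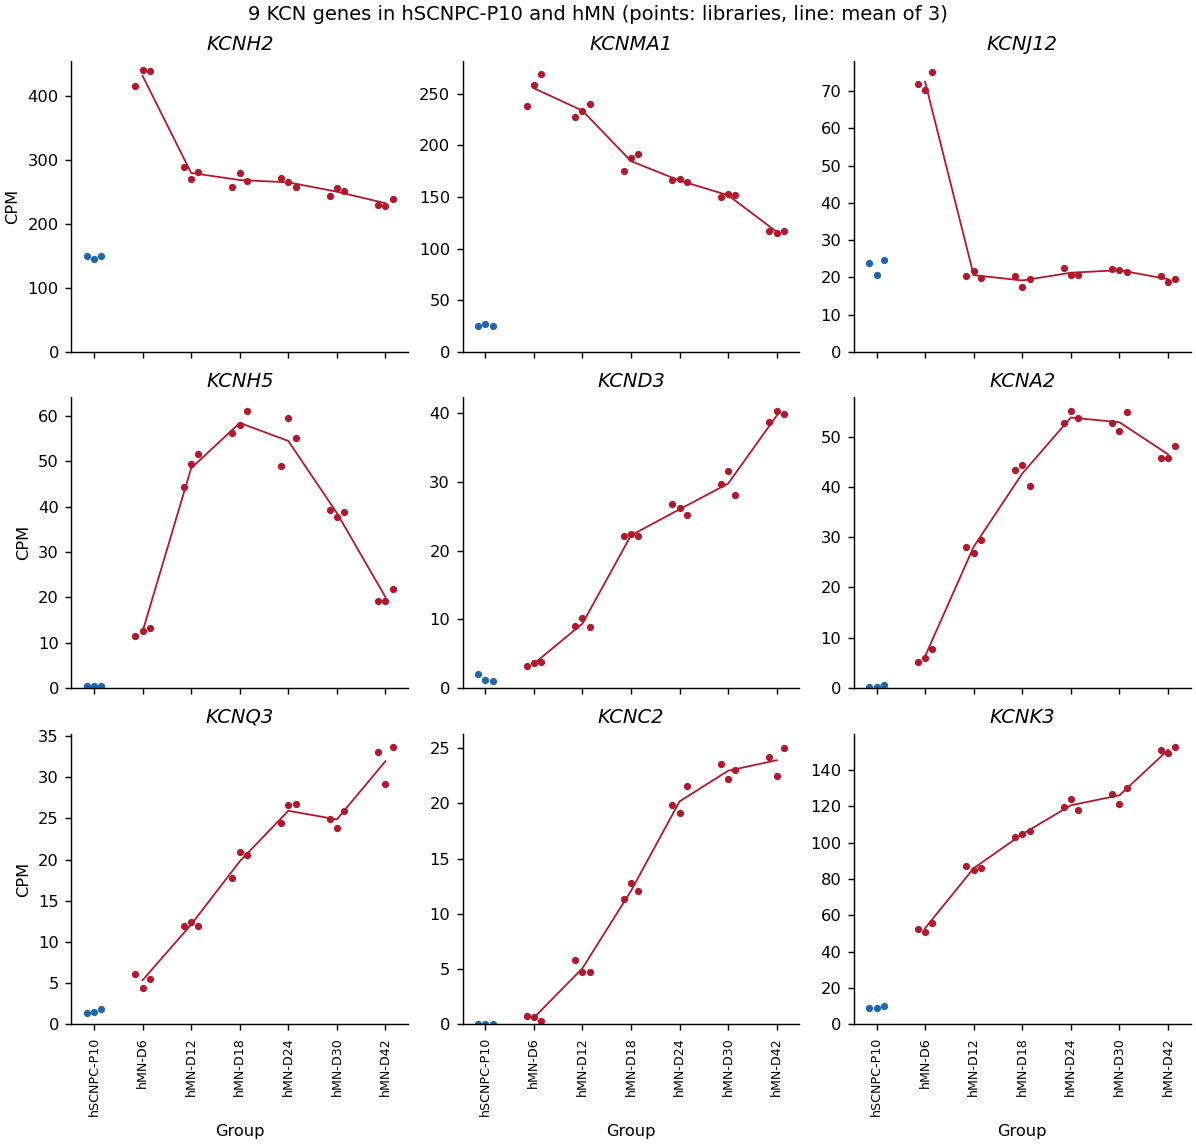
Level of 9 members in CPM in hSCNPC-P10 (blue) and the 6 hMN groups (red), with a point for each library and a line through the hMN means of 3. KCNH2, KCNMA1 and KCNJ12 are highest in hMN-D6, KCNH5 in hMN-D18, KCNA2 in hMN-D24, and KCND3, KCNQ3, KCNC2 and KCNK3 in hMN-D42.

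Of the 48 members with their top in an hMN group, 8 had it in hMN-D6, 1 in hMN-D12, 10 in hMN-D18, 10 in hMN-D24, 7 in hMN-D30 and 12 in hMN-D42. Some neighbouring days differed by less than the spread between libraries. KCNH2 had 268 ± 10.7 CPM in hMN-D18 and 265 ± 6.41 CPM in hMN-D24, and KCNA2 had 53.8 ± 1.21 CPM and 52.8 ± 1.89 CPM in hMN-D24 and hMN-D30.

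At hMN-D42 fewer members rose than fell. Of the 15 that rose, 6 had their highest mean in hMN-D42 itself (among them KCND3, KCNJ5, KCNK3, KCNK12 and KCNQ3), 2 in another hMN group and 7 at an earlier stage (among them KCNG1, KCNK6, KCNN4 and KCNS3), and 12 of any kind were higher without replicate 3 of hMN-D30. KCNS3 had 0.353, 0.408 and 0.426 CPM in hMN-D30 and 1.32, 1.53 and 1.17 CPM in hMN-D42 (edgeR log2 fold change 1.74 with SE 0.32, adjusted p = 1.7e-05). KCNK6 had 0.784, 0.856 and 1.15 CPM and 2.02, 1.53 and 2.26 CPM in these groups (edgeR log2 fold change 1.07 with SE 0.26, adjusted p = 0.000689). KCNG1 had 6.31, 5.302 and 6.43 CPM and 9.92, 9.79 and 10.1 CPM (edgeR log2 fold change 0.73 with SE 0.11, adjusted p = 6.24e-07). KCNN4, the intermediate-conductance channel of cells outside the nervous system, went from 0.314, 0.856 and 0.383 CPM to 1.57, 1.29 and 1.09 CPM (edgeR log2 fold change 1.33 with SE 0.37, adjusted p = 0.00303), and no library overlapped in these 4 genes. Markers of other cells rose over the same step. The 6 mesenchymal genes summed to 40.96 to 63.7 CPM in hMN-D18, 107 to 355 CPM in hMN-D30 and 814 to 929.6 CPM in hMN-D42, all 6 above 1 CPM on average in hMN-D42, with COL1A1 the most abundant at 673 ± 55.2 CPM. The 5 astrocyte genes summed to 9.22 to 15.3 CPM in hMN-D30 and 41.04 to 43.6 CPM in hMN-D42. MKI67 and TOP2A, of cycling cells, summed to 15.2 to 21.7 CPM and 44.99 to 52.3 CPM. Of the 5 neuron genes, 4 fell in the same step, among them MAP2 from 1501 ± 23.2 CPM to 1169.6 ± 41.8 CPM, and NEFH rose from 27.9 ± 1.09 CPM to 37.2 ± 1.73 CPM. Of the 4 motor neuron genes, 2 were higher and 1 lower, of which MNX1 was not called higher without replicate 3 of hMN-D30, with sums of 58.6 to 65.03 CPM and 63.6 to 64.2 CPM. The part of these markers in the rise or fall of KCN genes was not tested.

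At the step into hMN-D6 the cycling genes went from 934 to 959 CPM in hSCNPC-P10 to 20.2 to 24.6 CPM in hMN-D6, and the astrocyte list, mostly FGFR3, which progenitors express too, from 512 to 534 CPM to 54.6 to 56.7 CPM. MAP2 rose from 220.4 ± 6.32 CPM to 1407 ± 77.0 CPM. Their part in the 51 higher and 14 lower KCN genes was not tested.

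Genes outside the family that work with potassium channels were followed as 2 lists. Of 16 partner proteins, 14 were tested. In hMN-D6, 12 were higher and 1 lower than in hSCNPC-P10 (median log2 fold change 1.23), against 38.5% and 36.7% of all genes. Then 11 were higher and 1 lower in hMN-D18 than in hMN-D6 (0.65), against 27.3% and 27.1% of all genes. In hMN-D42, 2 were higher and 9 lower than in hMN-D30 (-0.24), against 21.8% and 19.9% of all genes. DPP6, an auxiliary subunit of KCND channels, had 1.86, 1.26 and 1.35 CPM in hSCNPC-P10, 13.2, 12.7 and 13.7 CPM in hMN-D6 and 72.8, 70.0 and 68.96 CPM in hMN-D18 (log2 fold changes 3.06 and 2.42). ANK3, the anchor that holds M channels at the axon initial segment, went from 63.1 ± 1.58 CPM in hSCNPC-P10 to 307 ± 30.1 CPM in hMN-D6 and 555 ± 38.4 CPM in hMN-D18. It fell to 291 ± 19.1 CPM in hMN-D42 (log2 fold changes 2.25, 0.86 and -0.65 against hMN-D30). CNTN2, of the juxtaparanode, rose from NeuDet-D6, at 0.335 ± 0.09704 CPM, to hSCNPC-P5, at 45.4 ± 1.22 CPM, and to hSCNPC-P40, at 147 ± 3.74 CPM (log2 fold changes 7.09 and 1.71). Within hMN it was the 1 partner lower in hMN-D18, at 28.3 ± 0.432 CPM against 128 ± 6.43 CPM in hMN-D6 (log2 fold change -2.18). AMIGO2, which binds KCNB channels, was the 1 partner lower in hMN-D6, at 0.296 ± 0.116 CPM against 2.07 ± 0.302 CPM in hSCNPC-P10 (log2 fold change -2.802).

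Of 18 genes of potassium transport and the HCN pacemaker channels, 15 were tested in the late comparisons. Of these, 8 were higher and 6 lower in hMN-D6 than in hSCNPC-P10, against 38.5% and 36.7% of all genes. Then 9 were higher and 2 lower in hMN-D18 than in hMN-D6, against 27.3% and 27.1% of all genes. SLC12A5, the potassium-chloride cotransporter that lowers chloride in mature neurons, rose from 6.95, 5.66 and 7.56 CPM in hSCNPC-P10 to 30.5, 36.7 and 32.9 CPM in hMN-D6 and 96.8, 105 and 112 CPM in hMN-D18. It fell to 53.03, 52.3 and 55.03 CPM in hMN-D42 (log2 fold changes 2.26, 1.64 and -0.71 against hMN-D30). The pacemaker genes HCN2 and HCN4 rose at the motor neuron step, to 43.6 ± 0.752 CPM and 73.4 ± 7.53 CPM (log2 fold changes 2.69 and 2.45).

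The other 20 members never reached 1 CPM in all 3 libraries of a group, and changes in them were close to the limit of what these depths can show. KCNA6 was without a count, KCNK18 had 3 and KCNJ18 13 counts over all libraries. A count of 0 over the 3 hSCNPC-P40 libraries corresponds to a level of at most 0.0535 CPM at the floor of 3 counts, which covers counting error only.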

How the data were processed

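RNA was sequenced from 66 libraries of H9 cells and their derivatives, 22 groups of 3, assigned to groups from the labels. Per the study's methods and labels, fastp was used for trimming, HISAT2 (version 2.1.0) for alignment to hg38, and featureCounts (version 1.5.3) for counting by gene. The authors deposited raw counts per gene in 2 tables, 1 of 48 libraries (hESC to hSCNPC) and 1 of 18 (hMN). The GENCODE release and the strand setting are not given in the sources used here, so reads of overlapping genes could not be told apart, and 16 members share over 10% of their exonic length with another gene.

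Of the 60603 identifiers, 60261 (99.44%) matched a symbol in GENCODE v44. The members and gene lists were chosen with earlier results of these data known. Levels are CPM with TMM factors over all libraries (edgeR 4.0.16, R 4.3.3), given as mean ± SD of 3, and RPKM used the summed exon length in GENCODE v44. Comparisons used edgeR's quasi-likelihood test after filterByExpr, fitted on all 48 libraries of the first table or on the 18 hMN libraries with hSCNPC-P10, with p-values adjusted by Benjamini-Hochberg over 21597 and 21175 genes and called under 0.05. The fit was also run on simulated counts in which far fewer genes changed than in these data. For the hNMP-D4 and hMN-D6 steps it called 68.7% and 64.2% of genes changed 1.5-fold. Of genes without a change it called 0.0565% and 0.054%. The study's methods name no differential test. A group without a count was set to a floor of 3 counts over the group, and a group of 1 to 3 counts is given as a ratio with an exact (Clopper-Pearson) 95% interval. Intervals and floors cover counting error only.

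Named members were up to 8 in each direction per comparison with the largest fold change among those called and with at least 1 CPM, the highest member of each subfamily, members known for their roles, and members without a count. KCNA7, KCNA10, KCNC4, KCNJ11, KCNJ18, KCNK18, KCNMB1 and KCNQ1 were named after their values were seen. No 2 libraries of a group were identical or within sampling noise of each other (chi-squared per degree of freedom from 1.89 to 25.3). Libraries with the same replicate number did not deviate together (correlations from -0.023 to 0.065), so numbers were not used as a block. Alternatives were other scalings and filters, DESeq2 (version 1.42.0), a fit of the compared groups alone, a replicate block and leaving out each library. Promoter windows are from RefSeq on GRCh38.p14. No protein sequence was used here. Values of some genes that these rules or the lists would name, their rows in the plots, and the oligodendrocyte marker list are not reported here.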

Additional observations from a re-analysis of the deposited data

How the results depend on the processing

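All counts of members called in the 8 comparisons stayed within 1.5 times the value given above under RLE scaling, library totals, no filter, a 1 CPM filter, DESeq2, a fit of the compared groups alone and a replicate block, and the counts detected in the 22 groups did so under library totals and a threshold of 0.5 CPM. Without 1 library at a time the members higher and lower ranged from 18 to 22 and 32 to 35 (hNMP-D4 against hESC), 15 to 16 and 35 to 39 (NeuDet-D6), 37 to 39 and 15 to 17 (hSCNPC-P5), 10 to 11 and 34 to 38 (passage 40), 47 to 51 and 13 to 15 (hMN-D6), 46 to 48 and 13 to 14 (hMN-D18), 25 to 27 and 15 to 18 (hMN-D30) and 11 to 14 and 27 to 31 (hMN-D42). With the replicate block, which the labels do not support as a pairing, 19 and 38, 15 and 38, 39 and 15, 11 and 37, 52 and 14, 50 and 14, 28 and 19 and 15 and 33 members were higher and lower in the same order. None of the single genes reported changed direction past the test under any of these alternatives. Single genes, members and listed genes together, lost a call in 32 comparisons with DESeq2, 25 without the filter, 17 under library totals, 17 with the compared groups alone, 3 with the 1 CPM filter and 1 each with RLE scaling and the replicate block, and in 208 refits that left out a library. Whether the lost calls lay mainly in genes of low level was not tested.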
